A study of Mus musculus with 7 samples.

Results

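The 10 genes examined here in mouse brain RNA mark GABA interneurons or their lineage: the calcium-binding proteins Pvalb, Calb1 and Calb2, the transcription factors Lhx6, Dlx1, Dlx2, Dlx5 and Dlx6, the secreted glycoprotein Reln and the receptor tyrosine kinase Erbb4. They were picked by symbol, and all 10 were found among the 48526 genes of the deposited table and among the 17896 genes with a mean value of 3 or more that were tested. The series concerns the detection of α-synuclein oligomers by complementation of a split fluorescent protein. Its 7 libraries come from brains of mice aged 24 months that carry V1S and SV2 and whose labels read DT Venus; 4 are labelled on with glucose and 3 off with Dox (doxycycline). Both groups carry both constructs, and every off library is also a doxycycline library, so the effects of the drug and of the constructs cannot be told apart. The promoter that drives the constructs, the strain, the sex, the brain region and whether each library is 1 animal were not given in the sources used here, and p-values measure the spread between these libraries, which may be technical.

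Inhibitory interneurons use GABA as their transmitter and are born in the ganglionic eminences of the embryonic ventral forebrain. Dlx transcription factors act early in all of these progenitors, while Lhx6 is switched on in cells of the medial ganglionic eminence that become Pvalb or Sst interneurons. None of the 10 genes is restricted to cortical interneurons: Dlx genes are also used by GABA neurons of the olfactory bulb and striatum, Pvalb and Calb1 by cerebellar Purkinje cells, Calb1 by dentate granule cells, and Calb2 and Reln by cerebellar granule cells. In bulk RNA, fewer cells of a type and less RNA per cell cannot be told apart.

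Values are rlog values (regularized logarithms, log2 scale), a transformation of counts that pulls low genes towards their mean, so differences of low genes are understated. The depth of each library is unknown. Markers of GABA neurons were well detected in every library, with Gad1 between 14.24 and 14.47, as were the glutamate neuron gene Slc17a7 (14.50 to 14.82), the myelin gene Mbp (16.96 to 17.25) and the astrocyte gene Gfap (13.44 to 13.85). The first principal component of all tested genes placed on replicate 1 at -4.10, among the off libraries (-8.64 to -3.56) and away from the other on libraries (7.19 to 9.15). Values without on replicate 1 are therefore given beside the marker results and for most lists. That library was singled out by these same values, and leaving out a library that lies near the other group widens differences in itself. Over all genes 466 passed with all libraries and 2917 without on replicate 1, so passing in that fit is not a separate test.

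None of the 10 markers passed the test between on and off brains (limma, adjusted p under 0.05 over all tested genes), against 2.60% of all tested genes. At an unadjusted p under 0.05 there were 6 of 10, against 20.7% of all tested genes, and at an adjusted p under 0.1 there were 4 of 10, against 6.60%. These 4 were Dlx1, Dlx2 and Dlx6, with lower means in on, and Reln, with a higher mean. The groups were fully apart in 5 of the 10, the same 4 genes and Erbb4, against 15.2% of all tested genes. The difference was below 0 in 7 of 10 markers, against 48.5% of all tested genes, and the median difference was -0.11 over the markers and 0.0029 over all tested genes.

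Without on replicate 1, 6 of the 10 passed, against 16.3% of all tested genes: Dlx1, Dlx2, Dlx6, Lhx6 and Calb2 lower in on, and Reln higher. Without on replicate 4, 1 passed, Dlx1, against 0.475% of all tested genes. In each of the other 5 fits that left out 1 library, 0 of the 10 passed in limma, and 4 to 7 were at an unadjusted p under 0.05. The share of all tested genes at that unadjusted p was not worked out for these fits. A correction that removed each library's trends with GC content and transcript length (the GC and length correction) was also applied. With limma's array weights, which give on replicate 1 a weight of 0.47, 4 passed (Dlx1, Dlx2, Dlx6 and Reln), against 12.4% of all tested genes.

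**Figure D1:**
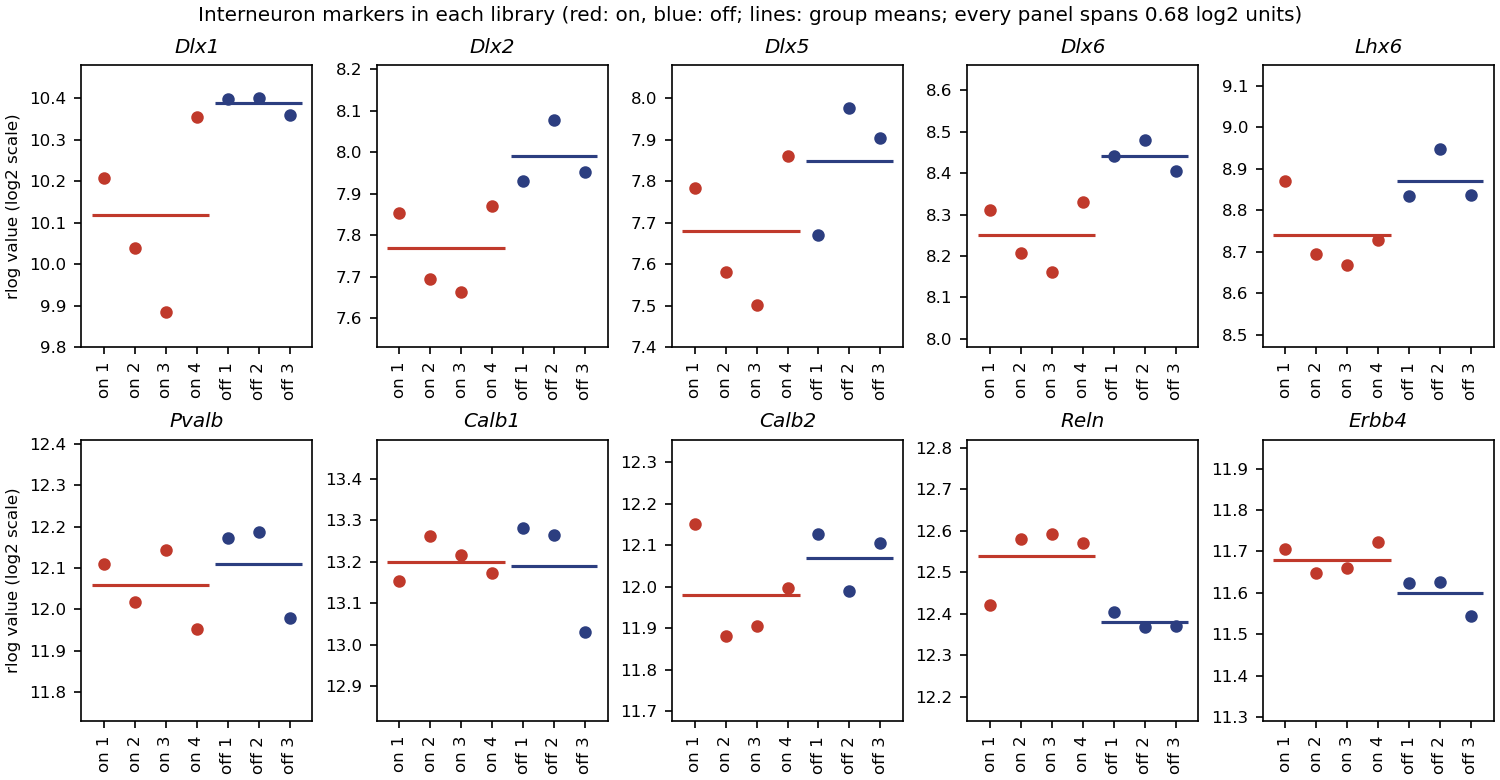
Deposited rlog value (log2 scale, vertical axis) of each of the 10 markers in each of the 4 on and 3 off libraries (horizontal axis), with lines at the group means and the same span in every panel. On replicates 2 and 3 are the lowest libraries for Dlx1, Dlx2, Dlx5 and Dlx6, and on replicate 1 is the lowest of the on libraries for Reln.

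The 4 Dlx genes form 2 pairs of neighbours that are transcribed towards each other. Dlx1 (chr2:71528113-71533981, plus strand) and Dlx2 (chr2:71543408-71546754, minus strand) lie 9426 bases apart, and Dlx6 (chr6:6863334-6868568, plus strand) and Dlx5 (chr6:6877805-6882085, minus strand) lie 9236 bases apart (GRCm38, GENCODE M21). The promoters of Dlx1 and Dlx2 are shown because these neighbours had the 2 largest differences of the 10 and varied alike over the libraries; that of Reln is shown because its difference had the other sign. Each window holds 300 bases, most of them before a RefSeq transcript start (GRCm38.p6), with the E-box CACGTG and the GC box GGGCGG, read on both strands, in capitals.
Dlx1 (chr2:71529195-71529494, plus strand): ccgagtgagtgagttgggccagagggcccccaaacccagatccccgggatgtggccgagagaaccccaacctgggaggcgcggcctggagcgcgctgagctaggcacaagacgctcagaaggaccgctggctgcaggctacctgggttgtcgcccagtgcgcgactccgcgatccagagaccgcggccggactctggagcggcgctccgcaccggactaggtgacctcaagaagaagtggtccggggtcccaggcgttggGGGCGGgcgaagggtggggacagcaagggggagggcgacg
Dlx2 (chr2:71546705-71547004, minus strand): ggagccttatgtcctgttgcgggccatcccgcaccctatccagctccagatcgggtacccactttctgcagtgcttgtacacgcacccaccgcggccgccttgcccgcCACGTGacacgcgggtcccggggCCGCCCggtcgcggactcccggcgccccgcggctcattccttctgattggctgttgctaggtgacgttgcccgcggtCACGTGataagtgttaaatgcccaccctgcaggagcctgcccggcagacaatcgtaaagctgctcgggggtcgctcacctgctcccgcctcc
Reln (chr5:22344656-22344955, minus strand): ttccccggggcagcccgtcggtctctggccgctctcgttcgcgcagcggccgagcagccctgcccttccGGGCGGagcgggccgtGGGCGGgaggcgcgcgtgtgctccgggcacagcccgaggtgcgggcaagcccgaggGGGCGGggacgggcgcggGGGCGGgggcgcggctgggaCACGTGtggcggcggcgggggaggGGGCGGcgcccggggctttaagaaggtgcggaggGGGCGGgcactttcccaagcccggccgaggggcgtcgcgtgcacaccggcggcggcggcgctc
The Dlx1 window holds 1 GC box, the Dlx2 window 1 GC box and 2 E-boxes, and the Reln window 6 GC boxes and 1 E-box. Of 32851 windows of this length in the table, 35.7% hold a GC box and 7.2% an E-box. The homeodomain core TAATTA, present in 5.3% of windows, and the TATA box TATAAA, present in 13.6%, were not found in these 3 windows on either strand. All 3 are rich in CpG, with 27 such dinucleotides in Dlx1, 29 in Dlx2 and 47 in Reln, more than 84.5%, 87.1% and 98.6% of the windows have. Windows were matched for 6 of the 10 markers. The Dlx1 window, placed by a RefSeq start, lies wholly inside the GENCODE span of Dlx1 given above, after the start of that span.

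Dlx1, which helps to maintain interneurons after birth, was at 10.21, 10.04, 9.88 and 10.36 in on replicates 1 to 4 and at 10.40, 10.40 and 10.36 in off replicates 1 to 3. The on libraries spread widely and the off libraries hardly at all, and the groups missed overlapping by only 0.004, between on replicate 4 and off replicate 3. The difference was -0.26 ± 0.08 (SE), from 10.39 ± 0.02 (SD, n = 3) in off to 10.12 ± 0.21 (SD, n = 4) in on, with an adjusted p of 0.0956 in limma. It was -0.29 (adjusted p = 0.0196) without on replicate 1 and -0.34 (adjusted p = 0.0443) without on replicate 4, the library nearest to the off group. Leaving out the library nearest to the other group widens a difference in itself. Without on replicate 3, the lowest library, it was -0.19 (adjusted p = 0.239), and it passed in no other fit without 1 library.

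Dlx2, the partner of Dlx1 in the same cluster, was at 7.85, 7.69, 7.66 and 7.87 in on and at 7.93, 8.08 and 7.95 in off. All 4 on libraries were below the lowest off library. The difference was -0.22 ± 0.07 (SE, adjusted p = 0.0903), and -0.25 (adjusted p = 0.0183) without on replicate 1.

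Dlx6, which lies with Dlx5 in the second cluster, was at 8.31, 8.21, 8.16 and 8.33 in on and at 8.44, 8.48 and 8.41 in off. It had the clearest gap between groups of the 4 Dlx genes, 0.074, and a difference of -0.19 ± 0.06 (SE, adjusted p = 0.0858), or -0.21 (adjusted p = 0.0208) without on replicate 1. Dlx5 was at 7.79, 7.58, 7.50 and 7.86 in on and at 7.67, 7.98 and 7.90 in off. Its groups overlapped, since off replicate 1 lay below 2 on libraries, and the difference was -0.17 ± 0.09 (SE, adjusted p = 0.31). It was -0.20 without on replicate 1, and ran from -0.26 without off replicate 1 to -0.11 without on replicate 3 and -0.10 without off replicate 2.

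The order of libraries was alike in the 4 genes. On replicates 2 and 3 were the lowest 2 of the 7 in each of them, and on replicate 4 was the highest on library in each. Pearson's r over the 7 libraries, given as a description, was 0.98 between Dlx2 and Dlx6, 0.92 between Dlx1 and Dlx2 and 0.79 between Dlx5 and Dlx6; the libraries share their group difference in each pair. The pair Dlx5 and Dlx6, neighbours in 1 cluster, had the lowest r of the 6 pairs of Dlx genes.

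Each Dlx cluster also yields a long RNA from the opposite strand. Dlx1as, which spans Dlx1, was at 7.44, 7.53, 7.47 and 7.51 in on and at 7.58, 7.70 and 7.68 in off. The groups did not overlap, and the difference was -0.17 ± 0.06 (SE, adjusted p = 0.112). Its order of on libraries was not that of Dlx1, since on replicate 1 was its lowest. Dlx6os1, which spans Dlx6 and is known as Evf2, was at 10.19, 10.18, 10.14 and 10.42 in on and at 10.35, 10.43 and 10.31 in off, with a difference of -0.13 ± 0.06 (SE, adjusted p = 0.236). The annotated exons of Dlx1as cover 6.2% of the exonic bases of Dlx1, and those of Dlx6os1 share none with Dlx6. The kit keeps the strand, but whether the counting used it was not given in the sources used here, so part of the value of Dlx1 is uncertain.

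Genes with patterns most like those of the Dlx genes were sought among 230 tested genes of the context lists by Pearson's r over the 7 libraries. Doc2g, a marker of olfactory bulb neurons, was the most like Dlx6 (r = 0.988) and Dlx2 (r = 0.969), and Scgn, a calcium-binding protein of bulb interneurons, was next for both (r = 0.968 and 0.966). Sp8, a factor of bulb and caudal ganglionic eminence interneurons, was the most like Dlx1 (r = 0.929), and Gad2 was next (r = 0.889). Wfs1 was the most like Dlx5 (r = 0.881), and Meis2 was next (r = 0.873). The group difference enters each of these r values.

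Markers of the olfactory bulb moved with the Dlx genes. Over 14 bulb genes, all tested, 12 had a difference below 0 with a median of -0.17, and 4 passed lower in on: Omp, Th, Doc2g and S100a5. The number that passed was 7 without on replicate 1 and 1 to 3 without any other library. Their mean deviation from each gene's own mean was -0.142 and -0.154 in on replicates 2 and 3, -0.050 and -0.010 in on replicates 1 and 4, and 0.103 to 0.149 in the off libraries. For the 4 Dlx genes the mean deviation was -0.166 and -0.245 in on replicates 2 and 3, -0.007 and 0.058 in on replicates 1 and 4, and 0.064, 0.188 and 0.109 in off replicates 1 to 3. Both sets were lowest in on replicates 2 and 3, but this was not particular to them. The lists of striatal projection neurons, ventral forebrain factors, the medial ganglionic eminence lineage and GABA synthesis and release were lowest there too. Striatal projection neuron genes were below 0 in 16 of 16, with a median of -0.12 and 1 past the threshold, Syndig1l (6 without on replicate 1, and 0 or 1 without any other library). Under the GC and length correction Syndig1l was at -0.13 (adjusted p = 0.128) and Th at -0.26 (adjusted p = 0.0982), and neither passed. The mean deviation of the striatal list ran from -0.121 to -0.013 in on and from 0.011 to 0.179 in off. None of the bulb or striatal markers was listed at 0. The part of either tissue in the Dlx values was not tested.

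**Figure D2:**
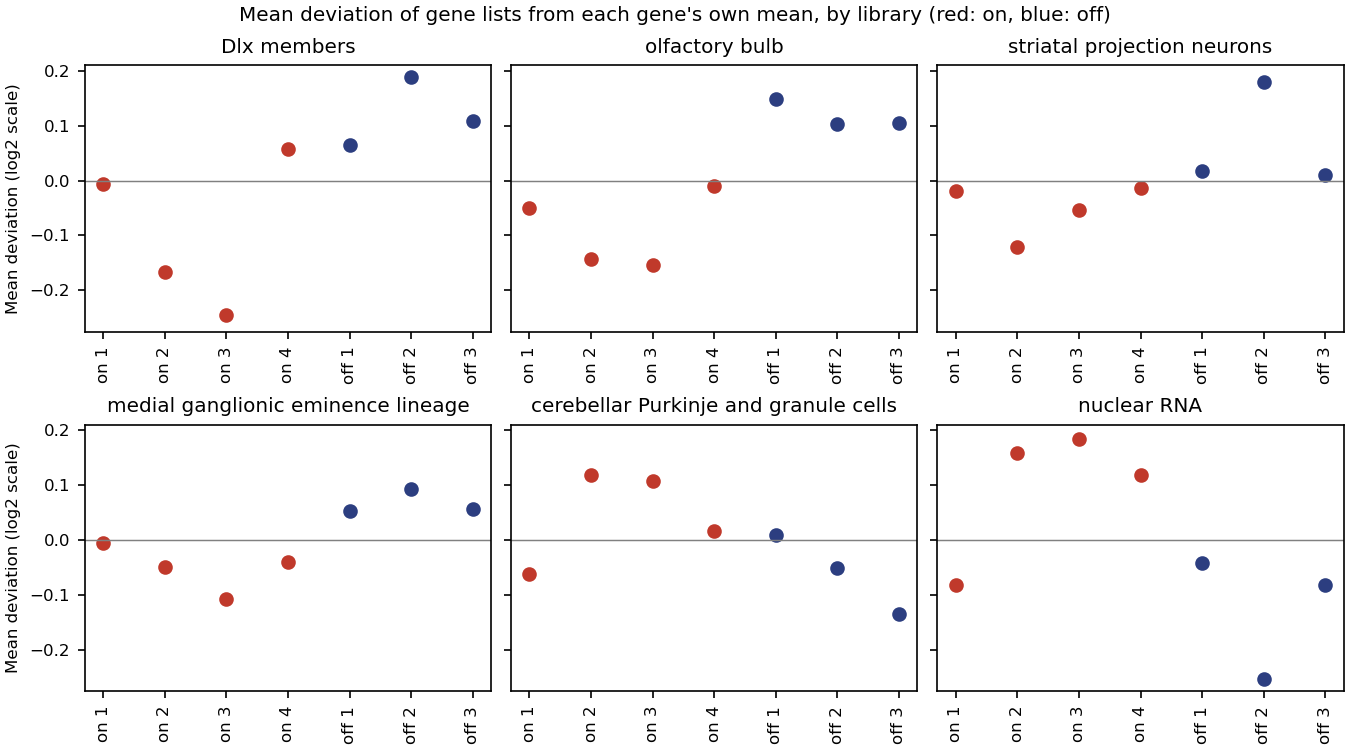
Mean deviation from each gene's own mean (log2 scale, vertical axis) in each library for the 4 Dlx markers and 5 context lists. The Dlx, olfactory bulb, striatal and medial ganglionic eminence panels are lowest in on replicates 2 and 3. Nuclear RNA is high in on replicates 2, 3 and 4 and at -0.083 in on replicate 1.

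Other factors of the ventral forebrain were mostly below 0 as well. Of 16 genes in that list, which includes Dlx1as and Dlx6os1, 14 were tested, 12 had a difference below 0, and 1 passed lower, with a median of -0.08; Dlx3 and Gsx2 were too low to test. The gene that passed was Sp9, a zinc finger factor of ventral forebrain neurons, at 8.15, 8.19, 8.00 and 8.19 in on and 8.36, 8.58 and 8.40 in off, a difference of -0.32 ± 0.07 (SE, adjusted p = 0.0269). Of the 7 fits with 1 library left out it passed in 3, where that library was off replicate 1 or on replicate 1 or 2, and its highest adjusted p in the other 4 was 0.162. Under the GC and length correction it was -0.33 and missed the threshold (adjusted p = 0.0527).

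Lhx6, the LIM homeodomain factor of the medial ganglionic eminence (chr2:36081953-36105408), was at 8.87, 8.69, 8.67 and 8.73 in on and at 8.84, 8.95 and 8.84 in off. On replicates 2, 3 and 4 were below every off library, and on replicate 1 was above 2 of the 3. The difference was -0.13 ± 0.06 (SE, adjusted p = 0.212). Without on replicate 1 it was -0.18 and passed (adjusted p = 0.0293).

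The other genes of the medial ganglionic eminence lineage had the same sign in most cases. Of 13, all tested, 12 had a difference below 0 with a median of -0.10, and 1 passed lower; without on replicate 1, 6 passed lower. The one that passed was Sst, the neuropeptide of the sister class of Pvalb cells, at 11.66, 11.48, 11.53 and 11.52 in on and 11.68, 11.99 and 11.84 in off. Its difference was -0.29 (adjusted p = 0.0307), and it passed only without on replicate 1 or off replicate 1 among the 7 fits that left out 1 library. Its difference was -0.14 (adjusted p = 0.161) under the GC and length correction, where it missed the threshold. Crhbp, found in Sst cells, differed by -0.22 ± 0.06 (SE, adjusted p = 0.0644). The mean deviation of the list was -0.107 to -0.005 in on and 0.053 to 0.092 in off.

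Genes of the caudal ganglionic eminence lineage, the source of Vip and Ndnf interneurons, were below 0 in 9 of 14 with a median of -0.05. Of these, 3 passed, all lower in on. The peptide gene Cck, also expressed by many pyramidal cells, differed by -0.24 ± 0.06 (SE, adjusted p = 0.0382), the nuclear receptor gene Nr2f1 by -0.23 ± 0.05 (SE, adjusted p = 0.0382) and Scgn by -0.31 ± 0.07 (SE, adjusted p = 0.0463). Scgn and Nr2f1 passed only without on replicate 1 among the fits without 1 library, and Cck only without on replicate 1 or off replicate 1. None of the 3 passed under the GC and length correction: Cck was at -0.09 (adjusted p = 0.459), Nr2f1 at -0.14 (adjusted p = 0.231) and Scgn, as large as before, at -0.31 (adjusted p = 0.0894). Vip, the defining peptide of the class, was at 9.92 to 10.01 in on and 9.83 to 10.05 in off, a difference of 0.01 ± 0.05 (SE, adjusted p = 0.92). All 4 on values of Vip lay within the off range.

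Among genes shared by nearly all GABA neurons, 4 of 5 were below 0 and 1 passed, Slc32a1, the vesicular GABA transporter, at -0.23 (adjusted p = 0.0282). It passed only without on replicate 1 or off replicate 1 among the fits without 1 library, and was -0.11 (adjusted p = 0.119) after the GC and length correction. The synthetic enzyme genes Gad1 (-0.11 ± 0.04, SE, adjusted p = 0.168) and Gad2 (-0.06 ± 0.04, SE, adjusted p = 0.494) did not pass. After the correction Gad1 was at -0.11 (adjusted p = 0.139) and Gad2 at -0.11 (adjusted p = 0.228). The list median was -0.06 before it and -0.11 after it. With on replicate 1 also left out, 3 of the 5 passed in limma, Slc32a1, Gad1 and Gad2, all lower in on. In that fit 4.53% of all genes passed lower. The mean deviation of this list was lowest in on replicates 2 and 3, at -0.060 and -0.087.

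The 3 calcium-binding proteins, which buffer calcium in the cytoplasm through EF-hand loops, had small group differences, none of which passed. Pvalb (chr15:78191114-78206400), the marker of fast-spiking basket and chandelier cells, was at 12.11, 12.02, 12.14 and 11.95 in on and at 12.17, 12.19 and 11.98 in off. The groups overlapped, and the difference was -0.06 ± 0.06 (SE, adjusted p = 0.603), or -0.07 (adjusted p = 0.392) without on replicate 1. Calb1 (chr4:15881264-15908064), which encodes calbindin, was at 13.15, 13.26, 13.22 and 13.17 in on and at 13.28, 13.27 and 13.03 in off. All 4 on libraries lay within the off range. The difference was 0.01 ± 0.06 (SE, adjusted p = 0.95), or 0.02 (adjusted p = 0.802) without on replicate 1.

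Calb2 (chr8:110137502-110168210), which encodes calretinin, was at 12.15, 11.88, 11.90 and 11.998 in on and at 12.13, 11.99 and 12.10 in off. On replicate 1 was the highest of all 7 libraries and on replicates 2 and 3 the lowest 2. The difference was -0.09 ± 0.06 (SE, adjusted p = 0.406), and -0.15 (adjusted p = 0.0335) without on replicate 1.

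The calcium-binding proteins did not follow a common pattern across libraries. Pearson's r over the 7 libraries was 0.61 between Pvalb and Calb1, 0.09 between Pvalb and Calb2 and -0.41 between Calb1 and Calb2. Calb2 was the most like Trh (r = 0.990), a peptide gene of the bulb list, at 8.92, 8.36, 8.38 and 8.64 in on and 8.93, 8.66 and 8.88 in off. Pvalb was the most like 2 Purkinje cell genes, the glutamate transporter Slc1a6 (r = 0.893) and Pcp2 (r = 0.849), which differed by -0.03 ± 0.05 (SE, adjusted p = 0.753) and -0.11 ± 0.05 (SE, adjusted p = 0.263). Calb1 was the most like the adaptor gene Crk (r = 0.985).

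Channels, release proteins and matrix of fast-spiking cells did not share one direction. Of 16, 11 were above 0 and 5 below, with a median of 0.03, and 0 passed in limma, with 5 at an unadjusted p under 0.05; without on replicate 1, 2 passed higher and 1 lower. The potassium channel Kcna1 had the smallest p, with a difference of 0.14 ± 0.04 (SE, adjusted p = 0.0609). Of 17 other small calcium sensors and buffers, 14 were tested, 13 of these were below 0 with a median of -0.10, and 0 passed in limma, with 7 at an unadjusted p under 0.05; without on replicate 1, 6 passed lower. Cerebellar genes, a list of Purkinje and granule cell markers, were above 0 in 14 of 16 with a median of 0.12. Their mean deviation was 0.118 and 0.108 in on replicates 2 and 3, -0.063 and 0.016 in on replicates 1 and 4, and -0.135 to 0.008 in off. The part of cerebellar tissue in the values of Pvalb, Calb1, Calb2 and Reln was not tested.

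Reln (chr5:21884454-22344702) encodes reelin, the matrix protein that guides layering in development and is made in the adult by interneurons of superficial cortex and by cerebellar granule cells. It was at 12.42, 12.58, 12.59 and 12.57 in on and at 12.41, 12.37 and 12.37 in off. On replicates 2 to 4 were high and close together, and on replicate 1 stood 0.016 above the highest off library. The difference was 0.16 ± 0.04 (SE), from 12.38 ± 0.02 (SD, n = 3) to 12.54 ± 0.08 (SD, n = 4), with an adjusted p of 0.0659, the smallest of the 10. Without on replicate 1 it was 0.20 (adjusted p = 0.00165).

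The library pattern of Reln was the reverse of that of Lhx6 (r = -0.94 over the 7 libraries) and Dlx6 (r = -0.86). Of the context genes it was most like the nuclear RNA Malat1 (r = 0.985) and Lrp8 (r = 0.982). Nuclear RNA genes were above 0 in 10 of 10 with a median of 0.20, and 2, Malat1 and Snhg14, passed (8 without on replicate 1, and 0 to 2 without any other library). Their mean deviation was 0.119 to 0.184 in on replicates 2 to 4, -0.083 in on replicate 1 and -0.254 to -0.043 in off. The Reln transcript, at 11699 bases, is longer than 98.8% of those of the tested genes. Spearman's rho between a gene's deviation and its transcript length, taken across genes that share these libraries, was 0.274 to 0.291 in on replicates 2 to 4, -0.059 in on replicate 1 and -0.316 to -0.233 in off. After the GC and length correction the difference of Reln was 0.06 (adjusted p = 0.455). With on replicate 1 also left out it was 0.09 (adjusted p = 0.0756), and it passed in neither fit.

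Downstream of reelin, 7 of 12 genes were above 0 with a median of 0.02, and 0 passed in limma, with 4 at an unadjusted p under 0.05; without on replicate 1, 2 passed higher. Lrp8 and Vldlr, the 2 reelin receptors, had the smallest p of the list. Lrp8 was at 11.80, 11.92, 11.94 and 11.92 in on and 11.74, 11.71 and 11.75 in off, a difference of 0.16 ± 0.04 (SE, adjusted p = 0.0502), and Vldlr differed by 0.11 ± 0.04 (SE, adjusted p = 0.11). Cajal-Retzius cell genes, markers of the early source of reelin, were above 0 in 7 of 10 with a median of 0.05, and 0 passed in limma, with 1 at an unadjusted p under 0.05.

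Erbb4 (chr1:68032186-69108059), the neuregulin receptor that interneurons use to form synapses, was at 11.71, 11.65, 11.66 and 11.72 in on and at 11.62, 11.63 and 11.54 in off. The groups were apart by 0.023. The difference was 0.09 ± 0.04 (SE, adjusted p = 0.219), or 0.08 (adjusted p = 0.189) without on replicate 1. Its transcript, at 12037 bases and 40.6% GC, is the longest of the 10, and after the GC and length correction the difference had the other sign, at -0.05 (adjusted p = 0.596). Among 11 other genes of neuregulin signalling, 7 were above 0 with a median of 0.04, and 0 passed in limma, with 4 at an unadjusted p under 0.05; without on replicate 1, 3 passed higher. The receptor Egfr (0.18 ± 0.05, SE, adjusted p = 0.0721) and the ligand Nrg1 (0.17 ± 0.05, SE, adjusted p = 0.0878) had the smallest p.

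**Figure D3:**
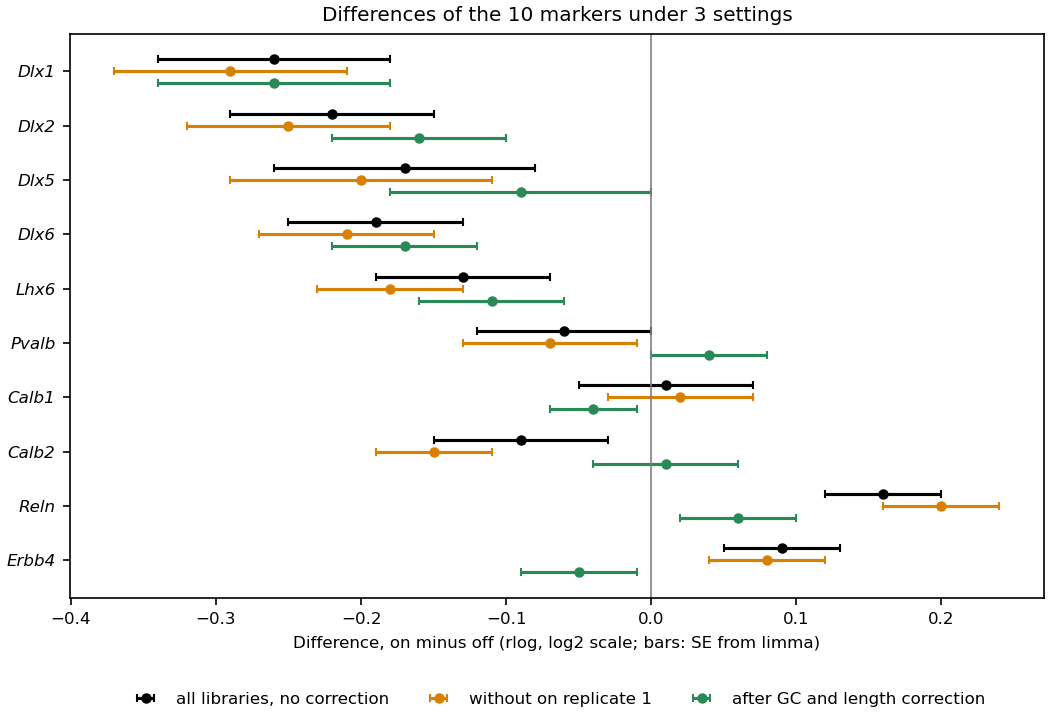
Difference between on and off (rlog, log2 scale, horizontal axis) of each marker with limma's SE, for all libraries, without on replicate 1, and after the GC and length correction. The Dlx genes and Lhx6 stay below 0 in all 3 settings, while Pvalb, Calb1, Calb2 and Erbb4 change sign after the correction.

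After the GC and length correction 0 of the 10 passed in limma, against 0.589% of all tested genes with a length. At an unadjusted p under 0.05 there were 3, and the share of all genes at that p was not worked out here. The correction left Dlx1 at -0.26 (adjusted p = 0.155), Dlx6 at -0.17 (adjusted p = 0.141), Dlx2 at -0.16 (adjusted p = 0.22), Lhx6 at -0.11 (adjusted p = 0.33) and Dlx5 at -0.09 (adjusted p = 0.629). With on replicate 1 also left out, 1 of the 10 passed, Dlx6 at -0.19 (adjusted p = 0.0466). Of all 17831 genes in that fit, 1791 passed in either direction, 808 of them (4.53% of all) lower in on. The median of the bulb list was -0.17 before the correction and -0.16 after it, with 4 and 3 genes passed, and that of the nuclear RNA list was 0.20 and 0.12, with 2 and 1 passed.

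Levels of different genes were compared per length, as the mean rlog value over the 7 libraries minus the log2 of the longest annotated transcript in kilobases. Pvalb was highest at 12.11, followed by Calb2 at 11.51 and Calb1 at 11.12. Reln stood at 8.92, Dlx1 at 8.20, Erbb4 at 8.06, Dlx5 at 7.25, Dlx6 at 7.19, Lhx6 at 6.999 and Dlx2 at 6.56. Calb1, the lowest of the calcium-binding proteins, was 2.19 above Reln on average and higher in 7 of 7 libraries. Dlx1 was above Erbb4, and Dlx5 above Dlx6, in only 5 of 7 libraries each, so neither pair differed beyond its spread. Dlx6 was above Lhx6 in 7 of 7 libraries, though their ranges overlapped. The order rests on the transcript chosen for each gene.

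**Figure D4:**
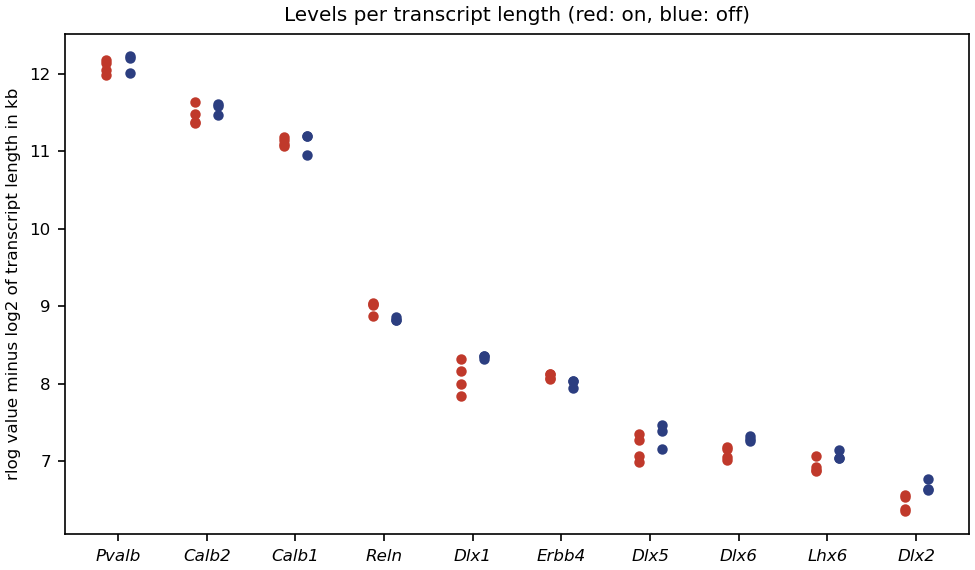
Level per length of each marker (rlog value minus the log2 of transcript length in kilobases, vertical axis) in each on library (red, left) and each off library (blue, right). Pvalb, Calb2 and Calb1 lie above the other 7 in every library, and Dlx1 and Erbb4 overlap.

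Among the remaining lists, glutamate neuron genes had a median of -0.02 over 12 genes with Grin2b passed higher and Nptx2 lower; the difference of Grin2b was 0.18, and -0.02 (adjusted p = 0.867) after the GC and length correction. Hippocampal genes had a median of -0.07 over 14 with Zbtb20 higher and C1ql2, C1ql3 and Pou3f1 lower. Astrocyte (-0.03 over 10), microglia (-0.11 over 10) and vessel, choroid plexus and blood genes (0.0040 over 10) had 0 past the limma threshold each, with 1, 4 and 1 at an unadjusted p under 0.05, and oligodendrocyte genes (-0.05 over 11) had Olig2 lower. Without on replicate 1 the number past the threshold was 3 for glutamate neurons, 6 for hippocampus, 1 for astrocytes, 4 for microglia, 2 for vessels, choroid plexus and blood, and 3 for oligodendrocytes. No call in these 6 lists held after the GC and length correction in limma. Their part in the marker values was not tested.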

How the data were processed

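Per the labels' protocols, RNA was extracted with a Qiagen kit with DNase digestion and made into libraries with an Illumina stranded mRNA kit. DESeq2 1.16.1 and Subread 1.5.3 are listed, with the aligners STAR 2.5.2 and BWA 0.7.14-r1136, the trimmer cutadapt 1.9.1 and the build GRCm38, per the submitters' processing notes, which give no role or order. Annotation, strand setting and filters were not given in the sources used here. For each gene and library the authors deposited 1 rlog value, on the log2 scale and without counts, so depth and counting error are unknown. Symbols matched 48144 of 48526 identifiers (99.2%). One listed symbol, Dlx6os1, has 2 identifiers, and the one spanning Dlx6 was used. No 2 libraries held identical values.

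Genes with a mean of 3 or more were tested with limma 3.58.1 in R 4.3.3 (group term, intensity trend, two-sided, Benjamini-Hochberg over all 17896 genes, threshold 0.05). Errors of differences are moderated SEs and those of means SDs. Lists (19, with 235 genes) are described by counts and medians. The GC and length correction removed from each library smooth trends fitted with mgcv 1.9.3 in 3 abundance classes, using the longest transcript of GENCODE M21 (17831 genes, 99.6%). Named genes were every member, set GABA and Dlx genes, those of smallest p or past the threshold in each list, and those most like a member; only those that a result turned on are named. Some genes that this rule names are not reported here. Members and lists were chosen with earlier results of these data known. On simulated data for 17896 genes in this design, 15 of 50 genes changed by 0.2 were recovered, 45 of 50 changed by 0.4 and 50 of 50 changed by 0.8, with 6 false among 166 calls; simulated noise was independent between genes.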

Additional observations from a re-analysis of the deposited data

Results flagged for a closer look

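In the 4 on libraries, Reln in on replicate 1 was at 12.42 against 12.57 to 12.59 in the others, and Dlx6os1 in on replicate 4 was at 10.42 against 10.14 to 10.19. In both, 1 library lay far from the rest by a gap test, which singles out about 1 in 20 such groups by chance. Of the 53 groups examined, about 2.6 would be singled out by chance, so these flags are no more than that.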

How the results depend on the processing

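Over 18 alternatives, Lhx6 and the 4 Dlx genes kept a difference below 0 and Reln one above 0. Alternatives that change only the filter, the error estimate or the threshold leave each difference unchanged, so its sign could not move there. Of the 10 markers, 0 passed in limma, 4 with array weights (Reln, Dlx1, Dlx2 and Dlx6), 4 at a threshold of 0.1, 1 after the GC and length correction without on replicate 1, and 0 to 6 with 1 library left out. Over all genes 466 passed, and 7 did with no filter, 237 without the intensity trend, 2215 with array weights, 1182 at a threshold of 0.1, 105 after the GC and length correction, 1791 after it without on replicate 1, and 43 to 2917 with 1 library left out. The cause was not tested. Signs changed after the correction, with all libraries and without on replicate 1, for Pvalb (0.04 and 0.05), Calb1 (-0.04 in both), Erbb4 (-0.05 and -0.08), Vip (-0.02 and -0.01), Grin2b (-0.02 and -0.04) and Slc1a6 (0.03 and 0.04), and with all libraries for Calb2 (0.01). With 1 library left out, Calb1 ran from -0.07 (without off replicate 3) to 0.05, with -0.01 without on replicate 2, and Vip from -0.05 (without off replicate 3) to 0.06.

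Deviations from the group means correlated across genes at -0.23, -0.10 and 0.02 for on and off libraries of the same number, 1 to 3. For libraries of unlike number they ran from -0.19 to 0.30. These values gave no sign that libraries of the same number were paired, but cannot exclude it. With the replicate number as a block, 30 genes and 0 markers passed, and Dlx1 differed by -0.34 (adjusted p = 0.0703). In that fit 5 markers were at an unadjusted p under 0.05, and the share of all genes there was not worked out. On replicate 4 has no partner. Depth is unknown, and rlog shrinkage understates low genes.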
